A study of Drosophila melanogaster with 8 samples.

Results

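Akh, jhamt and AstC are genes of hormone systems that are made outside the imaginal discs in the larva, and their signals were followed here in RNA from dissected eye-antennal discs. They were chosen by symbol from the platform's table of probe sets and genes, which gave 1 probe set to each, so that the 3 genes stand for 3 of 18952 probe sets and 3 of 11981 named genes. All 3 probe sets passed the filter on low values, as did 10205 probe sets in all, AstC only through its higher groups. The choice was made with their values in these samples known. Their levels and changes in the group comparisons are therefore given as a description, with no test, and tests are given only for other genes.

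The samples were Affymetrix arrays of total RNA from wandering third-instar Drosophila melanogaster larvae, each from 100 pairs of pooled eye-antennal discs, with 2 biological replicates in each of 4 genotypes. All larvae carried ey-GAL4, the yeast activator under control of the eye gene eyeless. Control discs, called lacZ, added UAS-lacZ in 2 copies. Discs called vg held UAS-vg beside a single UAS-lacZ, those called simj held UAS-simj beside a single UAS-lacZ, and those called vg_simj held both UAS-vg and UAS-simj. UAS-lacZ thus went from 2 copies to 1 and to 0 along with the genotype, and the effect of that number cannot be told apart from that of the other transgenes. The genes driven were vestigial (vg), a wing selector cofactor, and simjang (simj), which encodes a subunit of the NuRD chromatin complex, and the study asked how they redirect the fate of the disc.

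On each array the mean signal, without the lowest and highest 2%, had been scaled to 500, and the median signal lay between 36.5 and 46.3. Eye and antennal disc genes, among them ey, eya, dac and Dll, were present: all 10 with a probe set were above the array's median on all 8 arrays. This does not single out disc tissue, since Akh and jhamt were also above the median on all 8. The vg signal was 29.4 and 28.0 in lacZ, 16.6 and 22.2 in simj, 233.9 and 258.8 in vg, and 401.1 and 432.1 in vg_simj, as the labels require. The simj signal was 478.6 and 727.4 in lacZ and 594.9 and 678.9 in vg, against 1260.3 and 1062.8 in simj and 1076.9 and 911.8 in vg_simj. Its log2 change of 0.97 ± 0.22 (SE, n = 2) in simj against lacZ did not pass limma's test (adjusted p = 0.180).

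In fly larvae the ring gland, which sits by the brain, joins 3 endocrine tissues: the prothoracic gland makes ecdysone, the corpora allata make juvenile hormone, and the corpora cardiaca make adipokinetic hormone. Akh encodes adipokinetic hormone, the peptide that mobilises stored sugar and fat from the fat body, and it defines corpora cardiaca cells. The enzyme encoded by jhamt, juvenile hormone acid methyltransferase, carries out a late step of juvenile hormone synthesis and marks the corpora allata. AstC encodes allatostatin C, a peptide of brain neurons and of endocrine cells of the gut, named for its inhibition of juvenile hormone synthesis in moths. So jhamt encodes an enzyme of hormone synthesis and the other 2 genes encode peptides.

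Akh was highest in simj discs and lowest in the 2 groups with vg. Its signal was 726.0 and 375.9 in the lacZ replicates, 165.5 and 183.2 in vg, 1902.9 and 1476.3 in simj, and 340.8 and 66.3 in vg_simj. Both simj arrays lay above every other array, and both lacZ arrays above every vg and vg_simj array, although lacZ replicate 2 and vg_simj replicate 1 were close. The vg arrays lay inside the range of the vg_simj arrays, so the lowest 2 groups have no order. The mean was 551 ± 248 (SD, n = 2) in lacZ, 174 ± 12.5 in vg, then 1690 ± 302 in simj and 204 ± 194 in vg_simj. On these means Akh was 3.16-fold lower in vg and 3.07-fold higher in simj than in lacZ, and 8.30-fold lower in vg_simj than in simj.

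On the log2 scale, with the pseudocount of 2.8 added to every signal, the Akh change against lacZ was -1.57 ± 0.65 (SE, n = 2) in vg, 1.68 ± 0.65 in simj and -1.77 ± 0.65 in vg_simj. The last value leaned on the replicate chosen, because the vg_simj arrays differed 5.14-fold: without vg_simj replicate 1 it was -2.93, and without vg_simj replicate 2 it was -0.61. The change in simj was 1.49 without simj replicate 1 and 1.86 without simj replicate 2. Between simj and vg_simj discs the Akh change was -3.45 ± 0.65, larger in size than that between lacZ and vg, and the interaction, the vg effect with simj minus that without it, was -1.88 ± 0.92.

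The level of jhamt was highest in simj discs and several-fold lower wherever vg was expressed. Its signal was 809.0 and 547.6 in lacZ, 165.7 and 70.3 in vg, then 1049.0 and 1025.7 in simj, and 158.9 and 62.4 in vg_simj. The lacZ and simj arrays all lay above the vg and vg_simj arrays, and the simj arrays above the lacZ arrays, whereas the vg and vg_simj arrays overlapped almost entirely. The means were 678 ± 185 (SD, n = 2) in lacZ, 118 ± 67.5 in vg, then 1037 ± 16.5 in simj and 111 ± 68.2 in vg_simj. The mean was 5.75-fold lower in vg and 6.13-fold lower in vg_simj than in lacZ.

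The log2 change of jhamt against lacZ was -2.59 ± 0.49 (SE, n = 2) in vg, 0.64 ± 0.49 in simj and -2.70 ± 0.49 in vg_simj. Leaving out any array kept these between -3.19 and -1.99, 0.36 and 0.92, and -3.36 and -2.05. In vg_simj against vg the change was -0.11 ± 0.49, with an error larger than itself. In vg_simj against simj it was -3.34 ± 0.49, and the interaction of -0.75 ± 0.70 was about as large as its error. In every group replicate 1 read more than replicate 2, at 1.48-fold in lacZ, 2.36-fold in vg, 1.02-fold in simj and 2.55-fold in vg_simj.

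AstC was highest in vg_simj discs, where Akh and jhamt were low, and near or under the array median in the other groups. Its signal was 14.3 and 0.6 in lacZ, 23.3 and 25.5 in vg, then 52.4 and 23.1 in simj, and 263.8 and 115.8 in vg_simj. The 5 arrays under the median were both lacZ arrays, both vg arrays and simj replicate 2, while both vg_simj arrays were well above it and above all other arrays. The vg and simj arrays overlapped. No detection call was at hand to separate a signal under the median from background. The mean in vg_simj was 190 ± 105 (SD, n = 2).

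The AstC log2 change against lacZ was 1.83 ± 0.85 (SE, n = 2) in vg, 2.31 ± 0.85 in simj and 4.54 ± 0.85 in vg_simj, and in vg_simj it was 2.71 ± 0.85 against vg and 2.23 ± 0.85 against simj. The interaction of 0.40 ± 1.20 was smaller than its error. These sizes depended on the low lacZ signals: with a pseudocount of 64 the 3 changes against lacZ were 0.31, 0.50 and 1.77. The vg_simj change was 5.71 without lacZ replicate 1 and 3.38 without lacZ replicate 2, and positive with every array left out. Without lacZ replicate 1 and lacZ replicate 2 in turn, the vg change was 3.00 and 0.67 and the simj change 3.48 and 1.14.

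**Figure D1:**
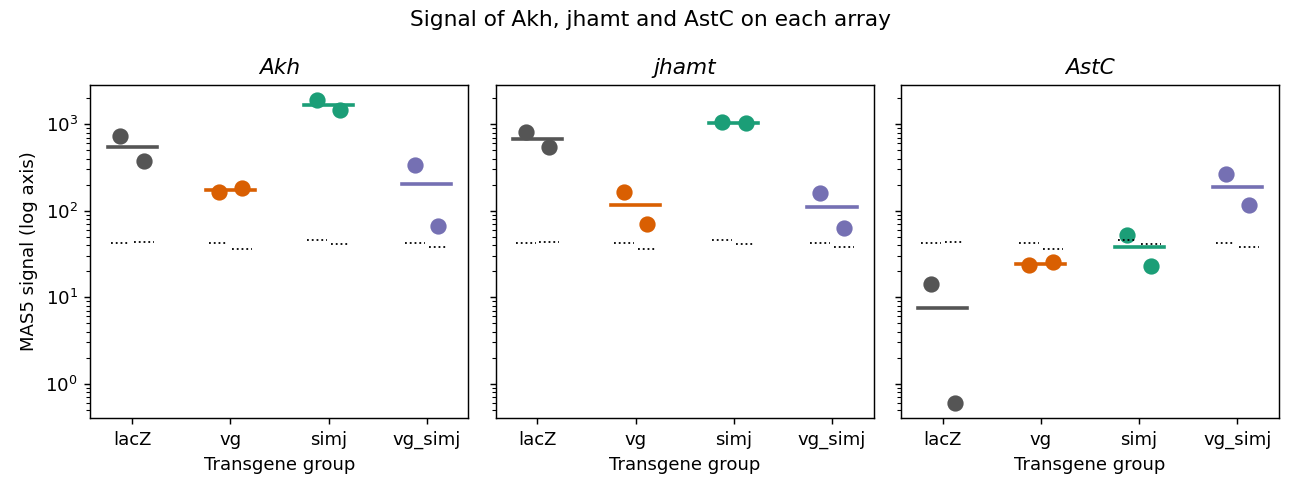
MAS5 signal of Akh, jhamt and AstC on a log axis in the 4 transgene groups, with 1 point per array (replicate 1 left, replicate 2 right), a coloured bar at the mean of 2 arrays and a dotted line at the median signal of that array. Akh and jhamt are lowest on the vg and vg_simj arrays, and AstC exceeds the median clearly only on the vg_simj arrays, at 263.8 and 115.8.

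Separation of the arrays is common in comparisons of 2 against 2. In vg against lacZ, 2 of the 3 genes (Akh and jhamt) were lower with no overlap, as were 19.4% of all probe sets tested, and 1 (AstC) was higher, as were 20%. In vg_simj against lacZ the same 2 were lower, beside 20.9% of probe sets, and AstC was higher, beside 21.4%. In simj against lacZ all 3 were higher, beside 16%, and 0 lower, beside 24.1%. These comparisons share the lacZ arrays. In vg_simj against vg, AstC was higher, beside 18.9%, and 0 were lower, beside 17.6%. In vg_simj against simj, Akh and jhamt were lower, beside 22.2%, and AstC was higher, beside 27.2%. By limma's test 0.774% of probe sets were called in vg against lacZ, 0.412% in simj against lacZ, 3.33% in vg_simj against lacZ, 0.921% in vg_simj against vg, 1.3% in vg_simj against simj and 0.049% for the interaction.

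Most genes of the prothoracic gland, the larger neighbour of the tissues that make Akh and jhamt, fell along with both in vg and in vg_simj against lacZ. Of 13 such genes tested, 10 fell in vg against lacZ and 10 in vg_simj against lacZ (limma, adjusted p under 0.05), where 0.519% and 2.29% of all probe sets fell. The median log2 change of the list was -2.03 and -2.52, beside 0.00 and 0.00 over all probe sets, and 0.24 in simj, where limma called 0 of 13 and 1 had an unadjusted p under 0.05. The summed signal of the list was 37444 to 45457 in lacZ, 11577 to 11871 in vg, then 43254 to 50307 in simj and 6566 to 7451 in vg_simj, and no member stayed under the median on every array. In vg_simj against vg 12 of the 13 had a negative change, with a median of -0.50 beside 0.01 over all probe sets. Of them 6 had an unadjusted p under 0.05 (limma), while Akh was at -0.20 ± 0.65 and jhamt at -0.11 ± 0.49 (SE, n = 2). In that comparison 1 fall was called, sad, an ecdysone synthesis gene, beside 0.764% of probe sets, and the call was lost without either vg array or vg_simj replicate 2, with no intensity trend and with only the groups compared. Start1, a sterol carrier gene of that gland, had a mean of 7920 ± 1105 (SD, n = 2) in lacZ and 1527 ± 90.9 in vg, and its log2 change was -2.37 ± 0.15 (SE; limma, adjusted p = 0.000903). Of the 10 falls in vg, 4 (Npc1a, Start1, nvd and sad) held under every alternative run that kept their probe set, as did 8 of the 10 in vg_simj. In these bulk samples, fewer cells of a gland and less RNA per cell cannot be told apart, and the part of attached gland tissue in the levels of Akh and jhamt was not tested.

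Set against those 13 genes on the same array, Akh did not keep one distance. Of the 13, spo and mld did not fall: against lacZ their log2 changes were 0.70 and 0.23 in vg, and 0.20 and 0.02 in vg_simj. They thus raised the mean of the gland genes in these groups, and gaps without them were not computed. Relative to the lacZ mean, Akh stood at -1.64 and -1.50 (log2) in vg and the mean of the gland genes at -1.62 and -1.80. In simj Akh stood at 1.86 and 1.49 and the gland genes at 0.21 and 0.28, a gap of 1.65 and 1.22, compared with gaps of 0.56 and -0.56 on the lacZ arrays. In vg_simj replicate 1 Akh was above the gland genes by 1.41 and in replicate 2 it was below them by a gap of -0.36. The Akh excess over the gland genes was thus larger on both simj arrays than on either lacZ array.

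For jhamt the gaps to the gland genes were 0.37 and -0.37 in lacZ, -0.37 and -1.40 in vg, then 0.44 and 0.35 in simj, and -0.03 and -0.79 in vg_simj. The simj gaps lay at or near the lacZ gap of replicate 1, and 2 of the 4 vg-carrying arrays, replicate 2 of each group, had a more negative gap than any lacZ array. That comparison is with a mean that holds spo and mld, and it may not hold against the gland genes that fell. All these gaps were computed after the signals had been seen and carry no test.

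**Figure D2:**
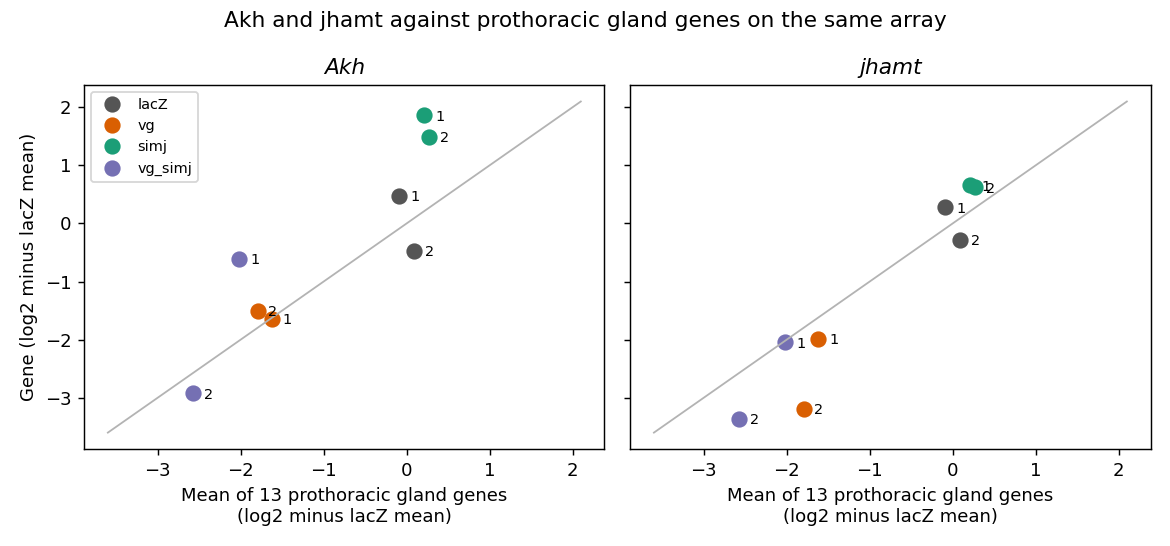
Log2 level of Akh (left) and jhamt (right) on each array, minus the lacZ mean, against the mean of 13 prothoracic gland genes on the same array, with numbers giving the replicate and the grey line marking equal change. Akh on the simj arrays (1.86 and 1.49) lies above the line, while the jhamt points of simj lie close to it.

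The genes whose patterns over the 8 arrays came nearest to each of the 3 were found by the root-mean-square difference between mean-centred log2 values, among 8758 named probe sets. The 8 points include replicates, and no test is attached. For Akh these were CG14075 (0.34), Pkg21D, a cyclic GMP-dependent protein kinase gene (0.45), Acsf2, CG9743 and sro, a gene of ecdysone synthesis (0.59), against a median of 1.57 over all candidates. CG14075 read 897.9 and 468.7 in lacZ, 190.5 and 196.2 in vg, then 2139 and 2129.3 in simj, and 282.9 and 42.1 in vg_simj, so that it was, like Akh, highest in simj and far apart between the vg_simj replicates. Pkg21D lay at 54 or under on the lacZ arrays and at 13.8 or under wherever vg was expressed.

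Nearest to jhamt were ouib (0.35), a zinc-finger activator of an ecdysone synthesis gene, CG14275 (0.39), GstE14 (0.41), a glutathione transferase gene of the prothoracic gland, CG14022 (0.45) and zyd (0.45), which encodes a calcium exchanger, against a median of 1.61. The gland gene ouib read 430.6 and 399.4 in lacZ, 75 and 60 in vg, then 474.3 and 505.3 in simj, and 95.2 and 50.9 in vg_simj. Akh and jhamt differed by 0.62, which placed jhamt at rank 7 for Akh and Akh at rank 13 for jhamt. The prothoracic gland list held 1 of the 5 genes nearest to Akh and 2 of the 5 nearest to jhamt.

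Nearest to AstC were CG4757 (0.45), lncRNA:CR32027 (0.84), Muc68Ca, a mucin gene (0.85), CG5002 (0.88) and Inx7, a gap junction gene (0.93), against a median of 1.79. CG4757 read 41.2 and 3.4 in lacZ, 60.2 and 25.6 in vg, then 66.8 and 46.7 in simj, and 319.7 and 203.3 in vg_simj, so both it and AstC had a very low second lacZ array. Akh and jhamt were at rank 8616 and 8700 for AstC, among the most unlike patterns.

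**Figure D3:**
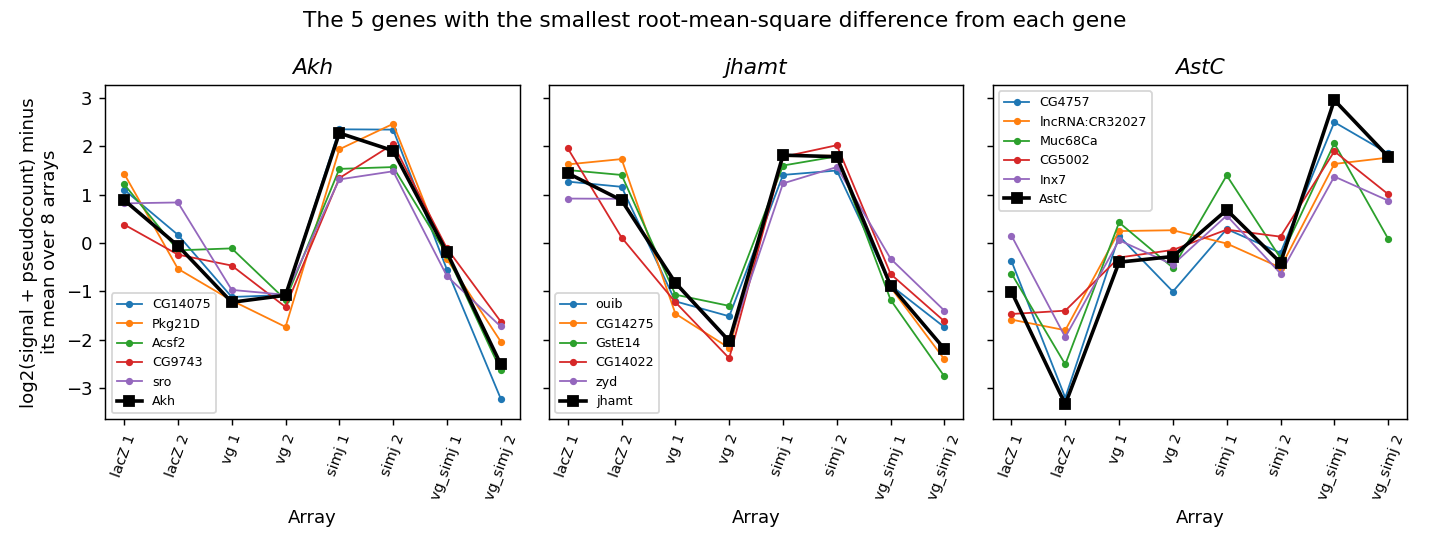
Log2 level minus its mean over the 8 arrays for Akh, jhamt and AstC (black) and for the 5 genes with the smallest root-mean-square difference from each (colours); lines only join the points of a gene. Akh and its 5 nearest genes are highest on the simj arrays. AstC and its nearest genes are highest on both vg_simj arrays, except Muc68Ca, which reads 109.1 on vg_simj replicate 1 but 25.7 on replicate 2.

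Of 8 other genes tied to the corpora cardiaca, 6 were tested and 1 was called in the comparisons with lacZ, gl, a zinc-finger factor of photoreceptors that is also used in the making of corpora cardiaca cells. The gl signal fell from 2405 ± 21.8 (SD, n = 2) in lacZ to 992 ± 89.2 in simj, where Akh was highest (log2 change -1.28 ± 0.13, limma, adjusted p = 0.0129), and to 853 ± 81.8 in vg_simj (-1.50 ± 0.13, adjusted p = 0.000969). In vg, where Akh was low, it was 2250 ± 12.2 (-0.10 ± 0.13, adjusted p = 0.875). With lacZ replicate 2 or any 1 of the simj arrays left out, with no intensity trend, or with only the groups compared, the simj call was lost. In simj against lacZ 0.265% of all probe sets fell.

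The corpora cardiaca peptide gene Lst, which encodes limostatin, changed by 0.55 ± 0.21 (SE, n = 2) in simj (limma, adjusted p = 0.532) and 0.45 ± 0.21 in vg_simj (adjusted p = 0.379). Sur, which encodes the sulphonylurea receptor of potassium channels, was at 0.54 ± 0.28 in simj (adjusted p = 0.691), and amon, the prohormone convertase gene, at -1.57 ± 0.42 in vg_simj, which did not pass the test. AkhR, the receptor gene of the hormone, lay under the median on every array, between 17.1 and 25.3, as did Ork1. The median log2 change of the 6 tested genes was -0.17 in vg, 0.32 in simj and 0.30 in vg_simj.

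Among genes of juvenile hormone synthesis, Cyp6g2, a cytochrome P450 gene of the corpora allata, shared the direction of jhamt. Its signal was 204 and 187.5 in lacZ, 48.1 and 17.7 in vg, then 328.7 and 456.9 in simj, and 33.9 and 60.6 in vg_simj, with all vg-carrying arrays under all others. It fell in vg_simj against simj (log2 change -3.02 ± 0.47 (SE, n = 2), limma, adjusted p = 0.0275), where 0.98% of all probe sets fell, a call lost without any 1 of the simj or vg_simj arrays and with no intensity trend. Against lacZ it was at -2.62 ± 0.47 in vg (adjusted p = 0.0608) and -2.04 ± 0.47 in vg_simj (adjusted p = 0.0616).

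The enzymes that supply the isoprenoid precursors, which all cells use, stayed nearer to 0. Hmgs, of the first steps of the mevalonate pathway, had log2 changes of -0.13 ± 0.12, 0.26 ± 0.12 and -0.19 ± 0.12 (SE, n = 2) in vg, simj and vg_simj against lacZ (limma, adjusted p = 0.810, 0.657 and 0.557), and Pmvk -0.03 ± 0.15, 0.48 ± 0.15 and -0.22 ± 0.15. Idi was at -0.27 ± 0.30 in vg_simj. In each of these 3 comparisons limma called 0 of the 6 tested genes, and 1 had an unadjusted p under 0.05. The median of the 6 was -0.11 in vg, 0.26 in simj and -0.21 in vg_simj, beside 0.00, -0.04 and 0.00 over all probe sets.

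Genes of juvenile hormone response and turnover had no call by limma in any of the 3 comparisons with lacZ: of 6 tested, 1 in vg and 0 in simj and vg_simj had an unadjusted p under 0.05. The receptor gene Met was at 0.57 ± 0.44 (SE, n = 2) in vg_simj (adjusted p = 0.630), the epoxide hydrolase gene Jheh2 at -0.11 ± 0.12 and the transporter gene JhI-21 at 0.07 ± 0.13. The inducible gene JhI-26 was at -1.43 ± 0.51 in vg (adjusted p = 0.389) and -0.93 ± 0.51 in vg_simj. Kr-h1, the main transcriptional target of the hormone, read 1234.5 and 1304.1 in lacZ, 1260.6 and 1296.5 in vg, then 1194.9 and 1033.9 in simj, and 1198.1 and 1410.7 in vg_simj, with all groups except simj overlapping.

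None of the other measured allatostatin or receptor genes had the pattern of AstC, being above the median on both vg_simj arrays and under it in lacZ. Its paralogue AstCC was between 1.0 and 10.1 on all arrays, under the median throughout, and the receptor gene AstC-R1 was above it only on simj replicate 1, at 65.6. Mip, for allatostatin B, was at -0.59 ± 0.78 (SE, n = 2) in vg_simj against lacZ (limma, adjusted p = 0.801), and its receptor gene SPR at -0.38 ± 0.36 (adjusted p = 0.695). These 2 were the other tested genes of the list, of 4 with a probe set.

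Of 36 other peptide hormone genes with a probe set, 16 were tested, and 1 was called in a comparison with lacZ. Ilp8, a relaxin-like peptide gene through which damaged discs delay metamorphosis, read 4.2 and 29.6 in lacZ, 218.2 and 300.4 in vg, then 164.8 and 157.0 in simj, and 851.4 and 448.8 in vg_simj. It rose by 4.10 ± 0.65 (SE, n = 2; limma, adjusted p = 0.0359) in vg and by 5.37 ± 0.65 (adjusted p = 0.00456) in vg_simj, where 0.255% and 1.04% of all probe sets rose. The call in vg was lost without either vg, simj or vg_simj array, and the call in vg_simj without vg_simj replicate 1. In simj limma called 0 of the 16, with 3 at an unadjusted p under 0.05.

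The abundant Nplp2, found in blood cells and fat body, read 4390.1 and 2195.1 in lacZ, 530.9 and 33.4 in vg, then 3604.1 and 13712.3 in simj, and 1396.2 and 275.5 in vg_simj, and was not called (-4.48 ± 1.27 in vg, adjusted p = 0.253). Nplp1 was at 0.24 ± 0.14 in vg_simj (adjusted p = 0.490). The median log2 change of the 16 was 0.02 in vg, 0.48 in simj and 0.16 in vg_simj. Of the 38 peptide hormone genes with a probe set, Akh and AstC among them, 14 were under the median on every array.

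**Figure D4:**
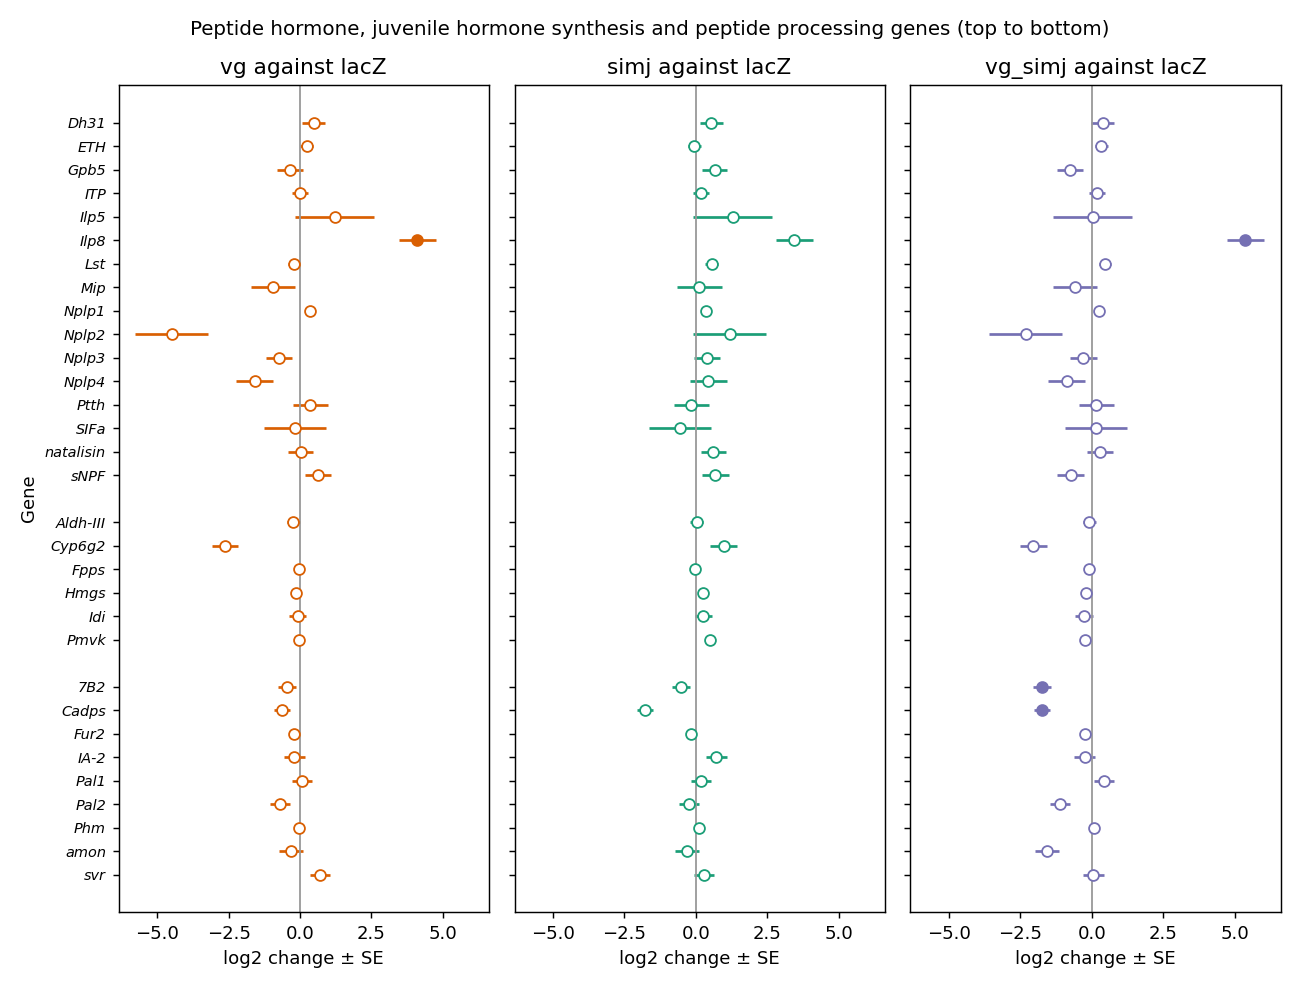
Log2 change against lacZ with its SE in vg, simj and vg_simj for the tested peptide hormone genes (top), juvenile hormone synthesis genes (middle) and peptide processing genes (bottom), leaving out Akh, jhamt and AstC; filled points have a limma adjusted p under 0.05. Ilp8 is filled in vg (4.10) and vg_simj (5.37), and 7B2 (-1.73) and Cadps (-1.74) in vg_simj.

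Receptor genes for peptide hormones had no call in the 3 comparisons with lacZ, limma giving 0 of 10 tested, with 1, 1 and 2 at an unadjusted p under 0.05 in vg, simj and vg_simj. The prothoracicotropic hormone receptor gene tor, also in the prothoracic gland list, read 104.3 and 103.0 in lacZ, 45.1 and 5.5 in vg, then 71.4 and 99.3 in simj, and 38.1 and 6.6 in vg_simj. Like jhamt it was lower on the vg-carrying arrays, but unlike jhamt it was not higher in simj than in lacZ (vg_simj -2.44 ± 0.93 (SE, n = 2), adjusted p = 0.256). InR, the insulin receptor gene, was at -0.76 ± 0.29 and Lkr, for leucokinin, at -0.90 ± 0.50 in vg_simj.

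Of the machinery that cuts and releases peptides, no gene was called higher in vg_simj, where AstC was highest. Of 9 tested genes 2 fell in vg_simj against lacZ, beside 2.29% of all probe sets: 7B2, the chaperone of the convertase, from 232 ± 13.2 (SD, n = 2) to 70.1 ± 25.3 (log2 change -1.73 ± 0.32, limma, adjusted p = 0.0263), and Cadps, of dense-core vesicle release, from 1603 ± 512 to 466 ± 35.1 (-1.74 ± 0.28, adjusted p = 0.0162). Leaving out 1 lacZ array (either of them) or vg_simj replicate 2 ended the 7B2 call, and leaving out lacZ replicate 1 or 1 vg_simj array (either of them), or the intensity trend, ended the Cadps call. Pal2, an amidating enzyme gene, was at -1.12 ± 0.34 (adjusted p = 0.158). The factor gene dimm, which marks peptide-secreting cells, was under the median on every array.

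Because brain neurons and gut endocrine cells normally make AstC, markers of neurons in general and of gut endocrine cells were followed. The neuronal list does not single out brain neurons, and its brightest gene, elav, was in the eye-antennal disc list as well. The summed signal of 11 neuronal genes was 4668 to 5694 in lacZ, 4674 to 5030 in vg, then 2038 to 2905 in simj and 1740 to 2194 in vg_simj, and 3 of 8 tested fell in vg_simj against lacZ, where 2.29% of all probe sets fell. Of these calls that of Appl was kept under every alternative run, and those of futsch and Cadps were each lost under 4. A further tested probe set of each was not called, at -0.10 for futsch (limma, adjusted p = 0.961) and -1.48 for Cadps (adjusted p = 0.237). The signals of VAChT, VGlut and Gad1 were under the median on every array. The gene pros, of enteroendocrine cells and of photoreceptors, fell from 402 ± 116 (SD, n = 2) in lacZ to 101 ± 25.2 in vg_simj, 1 of 3 tested (-1.96 ± 0.33, limma, adjusted p = 0.0191), which failed when lacZ replicate 2 or a vg_simj array was left out. Of the other gut endocrine peptide genes measured, NPF, CCHa1 and CCHa2 were never above the median, Mip was above it on 2 arrays and Orcokinin on 1. Dh31 was above it on 7 of 8 arrays, among them both vg_simj arrays, at 52.8 and 44.8. Its log2 change in vg_simj against lacZ was 0.39 ± 0.41 (SE, n = 2; limma, adjusted p = 0.739). The summed signal of 8 enteroendocrine genes, AstC included, was 478 to 611 in lacZ, 597 to 610.0 in vg, then 246 to 447 in simj and 340 to 492 in vg_simj. AstC itself made up 263.8 and 115.8 of the vg_simj sums of 492.1 and 339.6. This sum therefore does not show the other enteroendocrine genes apart from AstC.

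Blood cell, salivary gland and fat body genes also differed in level between the groups. The summed signal of 9 haemocyte genes was 6564 to 7793 in lacZ, 1550 to 2332 in vg, then 8026 to 11949 in simj and 3203 to 3889 in vg_simj, with 2 of 9 (Hml and PPO2) falling in vg, beside 0.519% of all probe sets, and 0 called in vg_simj, where 4 had an unadjusted p under 0.05 (limma). The Hml call was lost under 7 alternatives and the PPO2 call under 8. The sum of 9 salivary gland genes was 144 to 186 in lacZ, 814 to 5725 in vg, then 2592 to 2717 in simj and 1758 to 14751 in vg_simj, with 0 called by limma and 2, 2 and 4 at an unadjusted p under 0.05. Of the vg_simj arrays, replicate 1 was the higher in Akh, jhamt and AstC, and also in the sums of salivary gland, prothoracic gland, haemocyte and fat body genes, while replicate 2 was the higher in those of neuronal and disc genes. The other groups did not share this pattern. In lacZ and in simj, replicate 1 was again the higher in all 3 genes but the lower in the salivary gland, prothoracic gland and haemocyte sums. In vg, replicate 1 was the higher in jhamt but the lower in Akh, AstC and the prothoracic gland sum. The sum of 3 fat body genes was 213 to 227 in lacZ, 277 to 764 in vg, then 308 to 378 in simj and 446 to 499 in vg_simj. The part of these tissues in the levels of Akh, jhamt and AstC was not tested.

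The disc's own genes also differed between groups: the summed signal of 10 eye-antennal disc genes was 18428 to 18524 in lacZ, 17443 to 18657 in vg, then 10976 to 11813 in simj and 13545 to 17129 in vg_simj. Of these genes 1 fell in simj against lacZ (gl), and in vg_simj 1 fell (gl) and 1 rose (Dll), beside 0.265%, 2.29% and 1.04% of all probe sets. The Dll call was lost under 10 of 19 alternatives, among them each array left out, no intensity trend and only the groups compared. Other tested Dll probe sets were not called in vg_simj against lacZ, at 0.26 (limma, adjusted p = 0.810) and 0.47 (adjusted p = 0.316). The array level of Akh and jhamt was thus highest in the group with the lowest disc sum, and the part of that difference in their levels was not tested.

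One array, simj replicate 1, differed from the rest in some peptide genes of brain neurosecretory cells, which were picked out after their values were seen. Some other peptide genes shared this and some did not. NPF read 43.4 there and at most 3.9 on the other arrays, and SIFa 88.9 against at most 46.3. Ptth, for prothoracicotropic hormone, read 18.9 there and 19.4 to 47.2 on the other arrays, and ITP read 921 there and 787.5 to 1330.7 on the others. Of the genes picked out, Ilp2, an insulin-like peptide gene, read 258.2 on simj replicate 1 and at most 22.6 on the other arrays. Ilp5 read 216.6 against at most 46.8, and Ms, for myosuppressin, 202.7 against at most 21. Dh44 read 89.4 and Crz 51.0 there, both over that array's median of 46.3, and under the median elsewhere. The only simj array with AstC above the median was the same one, and without it the AstC change in simj was 1.76 in place of 2.31. On the vg_simj arrays, where AstC was high, Ilp2 read 22.2 and 7.2 and Ms 1.5 and 6.8. Akh and jhamt were high on both simj arrays.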

How the data were processed

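The authors deposited linear intensity values, namely MAS5 signals (named by the submitters' processing notes), with no version named. Labelling started from 100 ng of total RNA and used repeated amplification, per the labels' protocols. Symbols came from the platform annotation, updated through the reference gene table: 13646 probe sets had 1 symbol, 402 several and 4904 none. Values were taken as log2(signal + 2.8), with the 10th percentile as pseudocount; this understates the change of dim genes. After removing 183 control probe sets, probe sets above the array median on 2 or more of 8 arrays were tested.

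One group-means model was fitted over all 8 arrays with limma 3.58.1 in R 4.3.3 (eBayes with an intensity trend, 4 residual degrees of freedom). Tests were two-sided, adjusted by Benjamini-Hochberg over 10205 probe sets, and called at an adjusted p under 0.05. An SE is that of the model. The code was tested on simulated data. The number of arrays limits the precision.

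The members, gene lists and naming rule were chosen with earlier results of these data known. A list gene stood on its brightest probe set. Named were Akh, jhamt, AstC, vg and simj, list genes that were called, the 4 smallest p of each hormone list in vg_simj against lacZ, and the 5 nearest patterns. Of the markers of attached tissues, up to 3 of the brightest could be named. Other names were chosen after their values were seen. Alternatives are given in the closing section.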

Additional observations from a re-analysis of the deposited data

How the results depend on the processing

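Akh, jhamt and AstC kept the direction of each change against lacZ under all alternatives run, quantile normalization and median centring included. AstC failed the stricter filter and has no value there. Its change in vg_simj was 5.61 with 0.1 times the pseudocount, 3.43 with 4 times and 1.77 with 64, and with 64 it was 0.31 in vg and 0.50 in simj. With each array left out, the changes in vg, simj and vg_simj lay between -2.04 and -1.10, 1.20 and 2.15, and -2.93 and -0.61 for Akh, between -3.19 and -1.99, 0.36 and 0.92, and -3.36 and -2.05 for jhamt, and between 0.67 and 3.00, 1.14 and 3.48, and 3.38 and 5.71 for AstC.

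Called probe sets numbered 79 in vg against lacZ (44 with no intensity trend, 49 with 1 probe set per gene, 31 with only the groups compared, 26 to 88 with an array left out), 42 in simj against lacZ (18 with the stricter filter, 5 with no trend, 11 with 1 probe set per gene, 6 with only the groups compared, 1 to 34) and 340 in vg_simj against lacZ (176 with the stricter filter, 156 to 337). They numbered 94 in vg_simj against vg (39 with the stricter filter, 41 with only the groups compared, 21 to 87), 133 in vg_simj against simj (73 with the stricter filter, 66 with no trend, 353 with only the groups compared, 28 to 174) and 5 for the interaction, the vg effect with simj minus that without it (2 with the stricter filter, 0 to 10). Without lacZ replicate 2 the counts against lacZ were 26 in vg, 1 in simj and 156 in vg_simj, and without lacZ replicate 1 they were 38, 26 and 159. Without vg replicate 2 they were 48 in vg against lacZ and 21 in vg_simj against vg. Without simj replicate 1 and replicate 2 in turn they were 2 and 5 in simj against lacZ and 40 and 28 in vg_simj against simj, and without the vg_simj arrays in turn 168 and 166 against lacZ, 27 and 33 against vg, and 42 and 44 against simj. The stricter filter and 1 probe set per gene test fewer probe sets, and leaving out arrays or groups leaves fewer samples; otherwise the cause was not tested.

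The 1 call among peptide hormone genes in vg, Ilp8, became 0 with 0.1 times the pseudocount, no trend or only the groups compared (0 to 2 with an array left out). The 1 in vg_simj, also Ilp8, ranged from 0 to 1 with an array left out. With the stricter filter both counts were 0, because the Ilp8 probe set failed that filter and was not tested. Juvenile hormone synthesis genes had 1 call in vg and in vg_simj with pseudocounts of 4 times and 64, and 1 in vg_simj with only the groups compared (0 to 1 in both with an array left out).

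Same-numbered replicates were not stated to share a day or batch. Their deviations correlated at 0.06 to 0.40 across probe sets, positively for every pair of groups. With no stated pairing, none was put in the main fit, and a replicate block was run as an alternative. The replicate block moved the calls in vg_simj against simj to 213 and no other count by over 1.5 times.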

Other observations

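The 38 peptide hormone genes with a probe set, Akh and AstC included, were most often highest on simj replicate 1, a description over genes that share that array. Of them 15 had their highest signal there, against 0 to 5 on each of the other 7 arrays, and 21 were above the array median there, against 9 to 18 elsewhere. Of the 20 that exceeded the median on at most 1 array, 7 were highest on simj replicate 1. The same counts over all probe sets were not made, so these counts cannot be called particular to peptide hormone genes. This array also had the highest median signal, 46.3 against 36.55 to 43.4 on the others.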
